A study of Homo sapiens with 8 samples.

Results

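The transforming growth factor beta (TGF-beta) ligands, receptors and SMADs were examined after siRNA knock-down of RND3 in U87, a glioblastoma cell line of human origin. The set held 10 genes of the 19483 that the probes could be named for. They were taken by symbol, and were chosen with earlier results of these data known. These were the ligand genes TGFB1, TGFB2, TGFB3 and INHBA, the receptor genes TGFBR1 and TGFBR2, and SMAD2, SMAD3, SMAD4 and SMAD7. Each was represented by 1 probe, and all 10 probes were well above background on all 8 arrays, so all 10 passed the filter on dim probes.

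TGF-beta ligands are secreted in a latent form and, once released, bind a type II receptor that recruits and phosphorylates a type I receptor. The activated type I receptor phosphorylates SMAD2 and SMAD3, which join SMAD4 and enter the nucleus to regulate target genes, while SMAD7 is induced by the pathway and restrains it. Glioblastoma cells are known to secrete TGF-beta, in particular the product of TGFB2, which was first described there as a suppressor of T cells.

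The data comprised 8 one-colour arrays of total RNA, 1 array per sample. At 24 h after reverse transfection there were 3 arrays of cells given non-silencing oligos (siControl) and 3 of cells given siRNA against RND3 (siRND3), and at 48 h there was 1 array of each. The methods name a pair of RND3 oligos without saying which array received which, and nothing states whether replicates came from separate cultures, so p-values measure only the spread between these samples. The comparison with siControl at 24 h gives differences between the siRNA treatments, and off-target effects of the oligos were not tested. All values are log2 of the background-corrected intensity after quantile normalisation, and a change was called at an adjusted p of 0.05 in limma over the 28759 probes tested.

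RND3 was measured first as a check of the labels. At 24 h its level fell by 1.66 in log2 units (SE 0.10, adjusted p 0.000345 in limma), which left 31.7% of that in siControl, and at 48 h 31.9% was left. Per array, 68.3% to 70.7% of the 42405 probes were detected above background, and arrays of different treatments at 24 h correlated at r of 0.987 to 0.989, against 0.991 to 0.995 within a treatment. All arrays lay on 1 slide, with siRND3 in row 1 and siControl in row 2, and the row therefore cannot be told apart from the treatment. All 6 markers listed for U87 (VIM, CD44, FN1, NES, CHI3L1 and MET) were detected on all 8 arrays, whereas GFAP, SOX2, CDH1 and RBFOX3 were detected on none. CD44 and MET fell and NES rose at 24 h, and the summed intensity of the 6 markers ran from 243342 to 258403 in siControl and from 203830 to 232462 in siRND3. OLIG2, an oligodendroglial marker, also fell, as did a probe of the endothelial marker PECAM1 that was detected on 7 arrays (limma adjusted p 0.0216). The PECAM1 probe detected on all 8 arrays differed by -0.58 and did not pass (limma adjusted p 0.0640). CDH5, also endothelial, differed by 0.31 without a call (limma adjusted p 0.0619). The 4 astroglial and progenitor markers summed to 39.9 to 53.2 in siControl and 21.3 to 25.4 in siRND3. Only OLIG2 of these was detected on more than 1 array, so the sum rests largely on it. Its mean log2 values at 24 h were low, 5.03 in siControl and 3.64 in siRND3. The 6 markers of leukocytes, endothelium, epithelium and neurons summed to 263 to 309 and 296 to 324. In the last list PTPRC, PECAM1, CDH5 and EPCAM each had a probe detected on all 8 arrays. The part of these shifts in the results below was not tested, and in bulk RNA fewer cells of a type cannot be told apart from less RNA per cell.

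Among the members, 4 of 10 changed at 24 h. TGFB2, SMAD3 and SMAD4 fell and INHBA rose. TGFB2, a ligand, dropped to 60.8% of its siControl level, SMAD3, a receptor-activated SMAD, to 67.8%, and SMAD4, the shared partner of all receptor-activated SMADs, to 63.9%. INHBA, which encodes the activin A subunit, stood at 132% of siControl. Of all probes tested, 6.38% were called lower and 5.27% higher, against 3 and 1 of the 10 members. The 3 siRND3 arrays did not overlap the 3 siControl arrays for 6 members, of which TGFB2, SMAD2, SMAD3 and SMAD4 were lower and INHBA and TGFBR1 higher. Over all probes with 6 values, 14.0% lay apart in this way and lower, and 20.3% apart and higher.

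The RefSeq sequences upstream of the genes that changed are shown because these 4 transcripts moved at the time with replicates. Each runs over the 250 bases before an annotated transcription start in assembly GRCh38.p14, written 5′ to 3′ on the gene's strand. They cover chr1:218345086-218345335 (plus strand), chr15:67065352-67065601 (plus strand, the most upstream of 5 listed starts), chr18:51029963-51030212 (plus strand) and chr7:41703091-41703340 (minus strand). Capitals mark matches, on either strand, to the SMAD box (CAGAC), the AP-1 site (TGANTCA), the CRE core (TGACGT) or the E-box (CACGTG).
TGFB2: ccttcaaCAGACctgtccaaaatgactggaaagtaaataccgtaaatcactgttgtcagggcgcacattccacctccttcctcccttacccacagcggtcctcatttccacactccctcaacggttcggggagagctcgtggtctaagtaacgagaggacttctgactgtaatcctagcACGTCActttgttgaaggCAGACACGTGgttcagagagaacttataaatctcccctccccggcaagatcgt
SMAD3: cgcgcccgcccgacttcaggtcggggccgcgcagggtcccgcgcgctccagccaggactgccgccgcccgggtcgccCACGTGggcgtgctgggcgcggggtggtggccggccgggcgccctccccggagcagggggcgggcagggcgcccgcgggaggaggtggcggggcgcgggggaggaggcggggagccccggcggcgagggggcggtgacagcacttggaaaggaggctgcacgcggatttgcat
SMAD4: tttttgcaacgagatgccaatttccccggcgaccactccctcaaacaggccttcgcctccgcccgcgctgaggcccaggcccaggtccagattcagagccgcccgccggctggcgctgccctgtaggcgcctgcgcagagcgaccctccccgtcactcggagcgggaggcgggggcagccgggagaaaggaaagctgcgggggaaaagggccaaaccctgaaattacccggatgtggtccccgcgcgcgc
INHBA: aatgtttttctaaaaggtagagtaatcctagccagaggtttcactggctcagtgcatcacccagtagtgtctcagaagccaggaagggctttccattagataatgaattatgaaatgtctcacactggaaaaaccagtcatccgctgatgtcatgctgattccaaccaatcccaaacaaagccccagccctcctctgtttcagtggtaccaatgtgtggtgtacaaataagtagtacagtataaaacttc
The TGFB2 sequence held 4 matches, which were SMAD boxes starting 243 and 53 bases before the start site, a CRE core at 71 bases and an E-box at 49 bases that shares 1 base with the nearer SMAD box. In SMAD3 there was 1 match, an E-box at 173 bases, and the SMAD4 and INHBA sequences held none. Over the 35116 RefSeq windows of this length, a SMAD box was found in 38.0%, an AP-1 site in 6.57%, a CRE core in 7.10% and an E-box in 6.35%. Taking 1 window for each of the 10 members, 3 held a SMAD box, 1 a CRE core, 3 an E-box and 0 an AP-1 site. A match is a description of the letters and not a binding site.

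**Figure D1:**
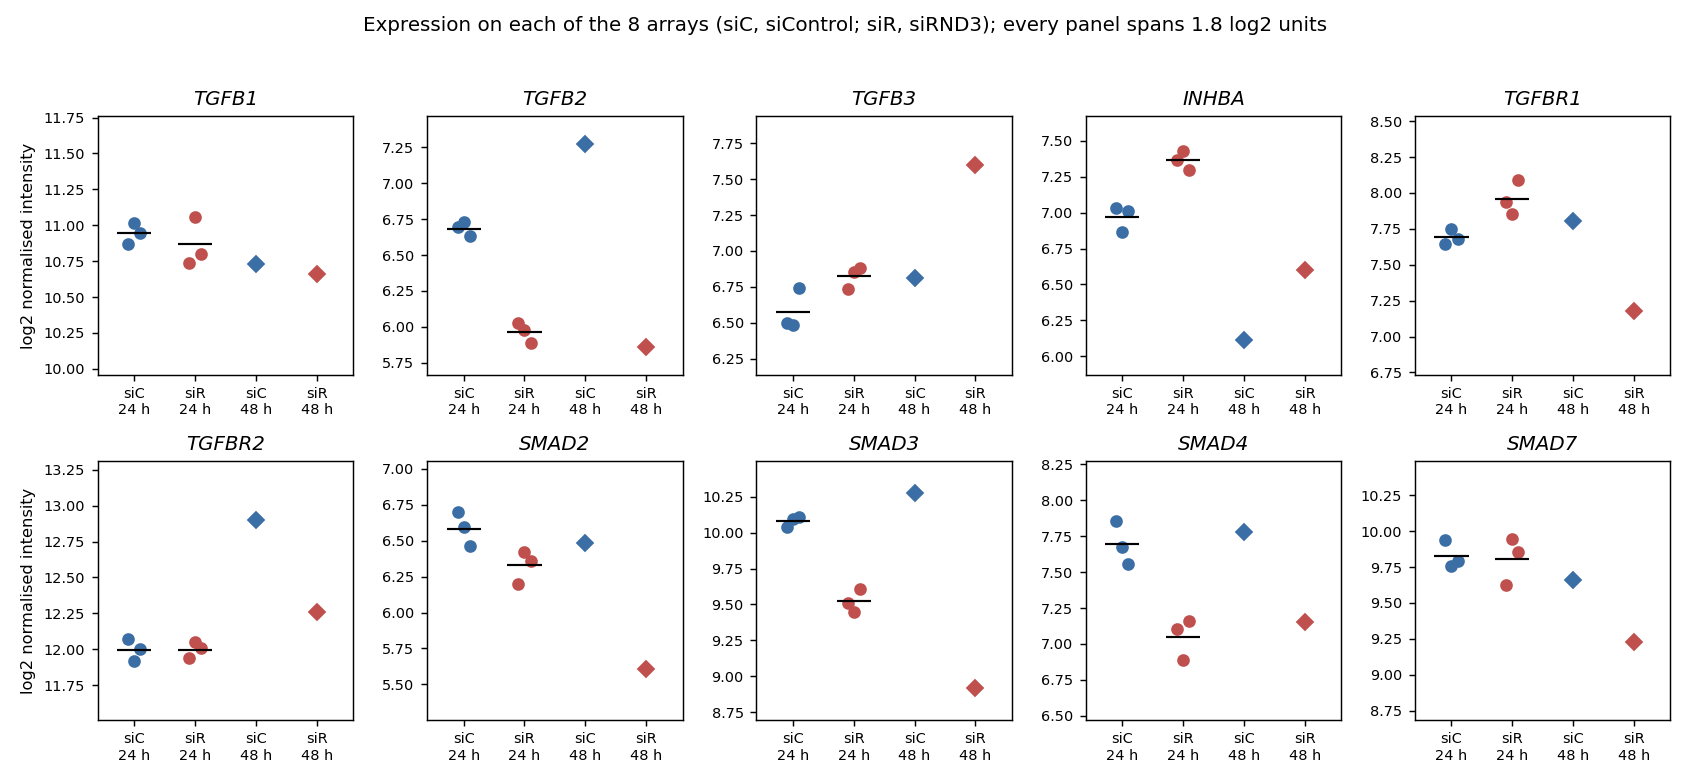
Log2 normalised intensity (y axis) of the 10 members on each array, by treatment and time (x axis). Circles are the 3 arrays per group at 24 h with their mean as a line, diamonds the single arrays at 48 h, and blue is siControl (siC) and red siRND3 (siR). The 3 red circles of TGFB2, SMAD3 and SMAD4 lie below the 3 blue ones, and those of INHBA above.

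The ligands moved in different directions. TGFB2 was 6.69, 6.73 and 6.63 on the siControl arrays (replicates 1 to 3) and 6.03, 5.98 and 5.89 on the siRND3 arrays at 24 h. The highest siRND3 array lay 0.60 below the lowest siControl array. The drop of 0.72 (SE 0.08, limma adjusted p 0.00259) exceeded the spread between arrays, which was 0.05 (SD, n = 3) in siControl and 0.07 (SD, n = 3) in siRND3. At 48 h the siControl array read 7.28 and the siRND3 array 5.86, a difference of -1.42 (adjusted p 0.00107). The size depended on the background correction, and with normexp the differences were -0.33 at 24 h and -0.75 at 48 h, both still called. Its 2 spots per array differed by a median SD of 0.16, the widest of the 10 members.

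TGFB1, which encodes the most widely expressed of the 3 TGF-beta isoforms, gave no call at either time. Its siControl arrays at 24 h read 10.87, 11.01 and 10.95 and its siRND3 arrays 10.74, 11.06 and 10.80. The groups overlapped, with siRND3 replicate 2 the highest of the 6 arrays, and the 24 h difference was -0.08 (95% interval -0.33 to 0.18, limma adjusted p 0.691). At 48 h the arrays read 10.73 and 10.66. This probe was printed 10 times per array, and the median SD over its spots was 0.06.

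TGFB3, the third TGF-beta isoform, read 6.50, 6.48 and 6.74 in siControl and 6.73, 6.86 and 6.88 in siRND3 at 24 h. The lowest siRND3 array fell just below the highest siControl array, and the difference of 0.25 did not pass (limma adjusted p 0.158). At 48 h it was 6.81 in siControl and 7.59 in siRND3, the highest of the 8 arrays, and the difference of 0.78 passed (SE 0.17, adjusted p 0.0225). It was the sole member called higher at 48 h. With normexp the TGFB3 difference at 48 h was smaller, 0.58.

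INHBA read 7.03, 6.86 and 7.01 in siControl and 7.37, 7.43 and 7.30 in siRND3 at 24 h. All siRND3 arrays were above all siControl arrays, and the rise of 0.40 passed (SE 0.08, limma adjusted p 0.0291). Of 16 other settings, the fit with all arrays could not differ at 24 h by construction. The call was lost in 6, with adjusted p from 0.0635 to 0.0951. Those 6 left out siControl replicate 1, 2 or 3 or siRND3 replicate 1 or 2, or took replicate number as a block. Both arrays at 48 h were below all 6 arrays at 24 h, at 6.11 in siControl and 6.60 in siRND3. Their difference of 0.49 had the same sign and did not pass (adjusted p 0.0584). With normexp the INHBA differences were smaller, 0.26 at 24 h, still called, and 0.28 at 48 h.

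The receptor genes gave no call at 24 h and both were lower at 48 h. TGFBR1, the type I receptor that phosphorylates SMAD2 and SMAD3, read 7.65, 7.75 and 7.68 in siControl and 7.94, 7.85 and 8.09 in siRND3 at 24 h. The siRND3 arrays all lay above the siControl arrays, by a mean of 0.27 (95% interval 0.06 to 0.48, limma adjusted p 0.104). An exact two-sided permutation test of these 6 values gave p = 0.1, the smallest that 3 arrays against 3 allow. At 48 h the order was the opposite, with 7.81 in siControl and 7.18 in siRND3, and the difference of -0.63 passed (adjusted p 0.0325). This call was lost when siControl replicate 1, 2 or 3 at 24 h was left out, with adjusted p of 0.0631, 0.0584 and 0.0693.

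TGFBR2, the ligand-binding type II receptor, gave no call at 24 h. Its siControl arrays read 12.07, 11.92 and 12.00 and its siRND3 arrays 11.94, 12.05 and 12.01, with a difference of 0.00 (95% interval -0.18 to 0.19, limma adjusted p 0.997). Both 48 h arrays were higher than any array at 24 h, at 12.90 in siControl and 12.26 in siRND3. The siRND3 array was lower by 0.64 on the log2 scale (SE 0.13, adjusted p 0.0193).

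Of the SMAD genes that carry the signal, SMAD3 was lower at both times, SMAD4 passed at 24 h only and SMAD2 at 48 h only, and the inhibitory SMAD7 did not pass at either time. SMAD3 read 10.04, 10.10 and 10.11 in siControl and 9.51, 9.45 and 9.61 in siRND3 at 24 h. The groups lay 0.43 apart and the decrease of 0.56 passed (SE 0.08, limma adjusted p 0.00676). At 48 h the arrays read 10.27 and 8.92, a difference of -1.35 (adjusted p 0.00126). SMAD3 was printed 10 times per array, and over the spots of one array the median SD was 0.07.

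SMAD4 read 7.86, 7.67 and 7.56 in siControl and 7.10, 6.89 and 7.16 in siRND3 at 24 h, with no overlap. In log2 units it fell by 0.65 (SE 0.11, limma adjusted p 0.0169), although with normexp the difference was -0.46, still called. Without siControl replicate 1 the adjusted p was 0.0573 and without siControl replicate 2 it was 0.0555. At 48 h the arrays stood at 7.78 and 7.16, nearly as far apart as at 24 h, and this unreplicated difference of -0.62 did not pass (adjusted p 0.0766).

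SMAD2 read 6.70, 6.59 and 6.46 in siControl and 6.20, 6.42 and 6.36 in siRND3 at 24 h. The groups did not overlap, but the highest siRND3 array was only 0.04 below the lowest siControl array and the difference of -0.26 did not pass (limma adjusted p 0.150). The 48 h siRND3 array, at 5.61, was the lowest of the 8 and the siControl array read 6.48, a difference of -0.87 that passed (adjusted p 0.0153). With normexp it was -0.41 and still called.

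SMAD7 read 9.94, 9.75 and 9.79 in siControl and 9.62, 9.95 and 9.86 in siRND3 at 24 h. The groups overlapped throughout, with a difference of -0.02 (95% interval -0.28 to 0.24, limma adjusted p 0.935). At 48 h it read 9.66 in siControl and 9.23 in siRND3, the lowest of the 8 arrays, and the difference of -0.43 did not pass (adjusted p 0.176).

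**Figure D2:**
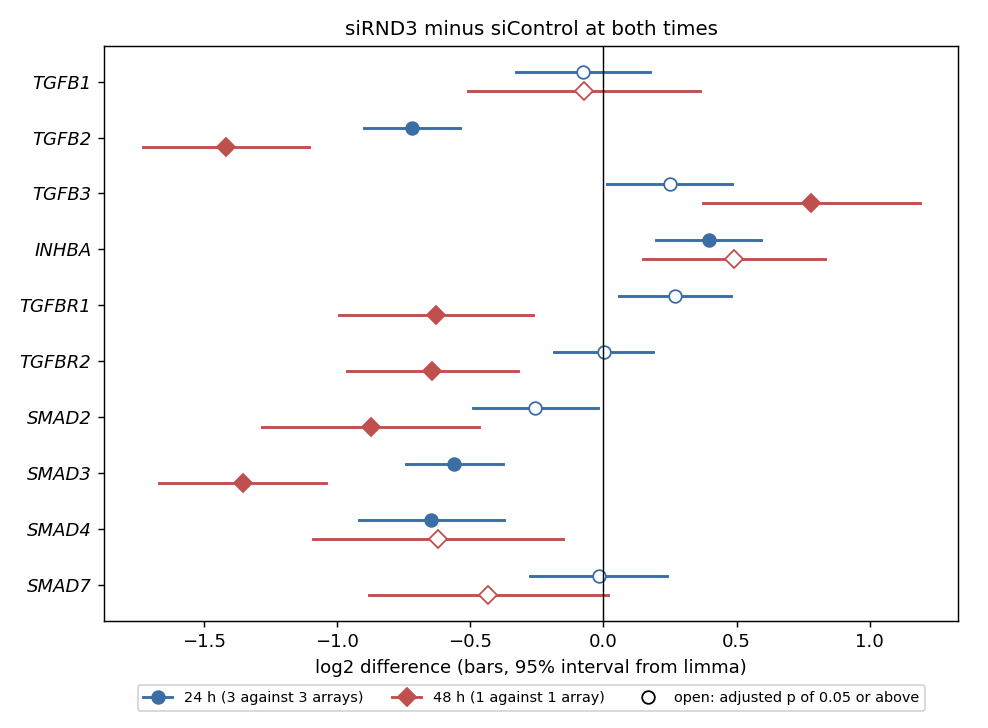
Log2 difference, siRND3 minus siControl (x axis), for each member (y axis) at 24 h (blue circles, 3 against 3 arrays) and 48 h (red diamonds, 1 against 1 array), with 95% intervals from limma. Filled symbols passed an adjusted p of 0.05, which were 4 members at 24 h and 6 at 48 h.

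At 48 h, 6 of the 10 members passed, with TGFB2, TGFBR1, TGFBR2, SMAD2 and SMAD3 lower and TGFB3 higher. Of all probes, 9.19% were called lower and 9.77% higher at 48 h. The members' median difference was -0.63, beside 0.05 over all probes tested. These calls rest on 1 array per treatment, and the model assumed that each varied like the arrays at 24 h.

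Whether the knock-down difference itself changed between 24 h and 48 h was tested by an interaction term. In limma, 0 of 10 members passed, where 1.63% of all probes were called lower and 1.10% higher. At an unadjusted p under 0.05 there were 6 members, of which TGFB2, TGFBR1, TGFBR2, SMAD2 and SMAD3 had more negative differences at 48 h and TGFB3 a more positive one. By that rule 9.12% of all probes were lower and 9.31% higher. TGFBR1 moved furthest, by -0.90 (95% interval -1.32 to -0.48, limma adjusted p 0.0549), from a positive to a negative difference. SMAD3 moved by -0.79 (adjusted p 0.0514), TGFB2 by -0.70 (adjusted p 0.0684) and TGFBR2 by -0.64 (adjusted p 0.0884). For TGFBR1, TGFBR2 and SMAD3 the interaction passed with normexp and with the deposited log2 values, and for TGFBR1 and SMAD3 also with the stricter filter on dim probes. In SMAD4 the shift was 0.03 (95% interval -0.52 to 0.57).

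The 48 h arrays were also set against the 24 h arrays of the same treatment. In siControl cells 3 members changed, where 2.73% of all probes were called lower and 0.824% higher. TGFBR2 rose by 0.90 (limma adjusted p 0.0159) and TGFB2 by 0.59 (adjusted p 0.0386), and INHBA fell by 0.86 (adjusted p 0.0196). None of these 3 calls was kept when any 1 of the siControl arrays at 24 h was left out, with adjusted p from 0.0530 to 0.125, and that of TGFB2 was also lost without siRND3 replicate 2 or 3 (adjusted p 0.0595 and 0.0511). With normexp TGFB2 rose by 0.38 and INHBA fell by 0.51, both still called.

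In siRND3 cells 5 members changed with time, where 6.45% of all probes were called lower and 2.59% higher. TGFB3 rose by 0.77 (limma adjusted p 0.0218). TGFBR1 fell by 0.78 (adjusted p 0.0150), INHBA by 0.76 (adjusted p 0.0134), SMAD2 by 0.72 (adjusted p 0.0271) and SMAD3 by 0.60 (adjusted p 0.0213). INHBA was thus lower at 48 h in both treatments. TGFB2 differed between the times by -0.11 in siRND3 cells (95% interval -0.36 to 0.15), without a call. The SMAD3 call was lost without any 1 of the siControl arrays, and that of SMAD2 without siControl replicate 2 or siRND3 replicate 2 or 3. With normexp INHBA fell by 0.48 and SMAD2 by 0.33, both still called.

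**Figure D3:**
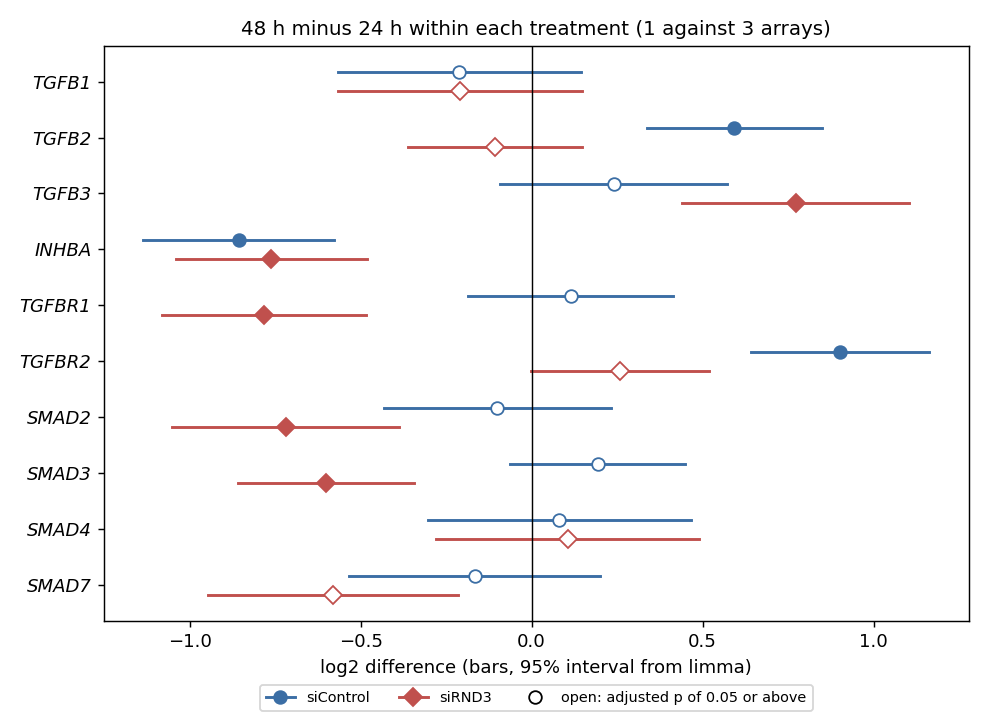
Log2 difference, 48 h minus 24 h (x axis), for each member (y axis) in siControl (blue circles) and siRND3 cells (red diamonds), 1 against 3 arrays each, with 95% intervals from limma. Filled symbols passed an adjusted p of 0.05, 3 in siControl and 5 in siRND3 cells, and INHBA is to the left in both.

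TGFB2 had the widest range of the 10 members over the 8 arrays, 1.42 on the log2 scale. Among 19049 named probes, the profiles most like it were those of RELB, an NF-kB subunit (Pearson r 0.996 over 8 arrays), CDC42EP2, an effector of the GTPase CDC42 (0.995), and CASTOR3P (0.990). RELB, for example, read 10.88, 10.89 and 10.89 in siControl and 10.31, 10.27 and 10.14 in siRND3 at 24 h, and 11.32 and 10.15 at 48 h. The 8 points share 1 slide and fall into the groups of the design, so r mainly describes group levels.

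The other genes of the pathway were described by role in 6 lists of 116 genes, of which 98 were tested. These lists, like the members, were chosen with earlier results of these data known, so their counts are a description. At 24 h, 21 were lower and 2 higher, where 9.26% of all genes tested were lower and 7.16% higher. The median difference over the lists was -0.10, beside 0.05 over all probes. At 48 h there were 30 lower and 4 higher, where 13.3% of all genes were lower and 14.3% higher, and the median was -0.23. At both times the lower genes include ACVR1C, which entered the test through siControl alone.

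Of 8 tested genes listed as other ligands, 2 fell at 24 h, where 9.26% of all genes tested were lower. The list included BMP1, which encodes a protease. GDF11, a ligand close to myostatin, dropped by 1.13 (SE 0.11, limma adjusted p 0.00196) and GDF15, a stress-induced ligand, by 1.05 (SE 0.07, adjusted p 0.000554). The siRND3 arrays of GDF15 read 13.67, 13.70 and 13.67 against 14.72, 14.66 and 14.80 in siControl. Of 13 genes for latency and activation, 2 fell, not far from that share. FURIN, the protease that cleaves TGF-beta precursors, fell by 0.44 (adjusted p 0.0280) and ITGB3, an integrin subunit, by 0.37 (adjusted p 0.0243). The FURIN call held in 7 and the ITGB3 call in 10 of 16 other settings. Both counts include the fit with all arrays, which could not differ at 24 h by construction. Neither call held without siControl replicate 1, 2 or 3.

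Among 9 other receptors, 1 was called, against 0 with the filter on all 6 arrays at 24 h and 2 without siControl replicate 2 or siRND3 replicate 3. Of all genes tested, 9.26% were lower and 7.16% higher at 24 h, so the count was near that share. ACVR1C, which encodes the type I receptor ALK7, read 5.37, 5.29 and 5.24 in siControl and 3.43, 3.22 and 3.96 in siRND3 at 24 h. It was detected on all 3 siControl arrays and on 1 of the 3 siRND3 arrays at 24 h, so it entered the test through siControl alone. The difference of -1.77 at 24 h is therefore given as a description, and it was -0.47 with normexp. On the siRND3 array at 48 h it did not rise above background, and the 48 h difference was -0.95 with normexp and -1.44 with the deposited log2 values.

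Of 15 other SMADs and nuclear partners, 4 fell at 24 h and none rose, with a median of 0.01. Over all genes tested, 9.26% were lower and 7.16% higher. TRIM33, which ubiquitinates SMAD4 and also binds SMAD2 and SMAD3, dropped by 1.39 (SE 0.17, limma adjusted p 0.00448), and SP1, a transcription factor at many TGF-beta targets, by 0.78 (SE 0.11, adjusted p 0.00692). SMAD1, a BMP-activated SMAD, fell by 0.52 and JUN, an AP-1 subunit, by 0.47, and these were named after their values were seen. The count of 4 became 2 without siControl replicate 1 or 3, where TRIM33 and SP1 still passed and SMAD1 and JUN did not. At an adjusted p of 0.05, 11 genes of this list gave no call.

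Genes listed as inhibitors of signalling were lower in 4 of 18 cases and higher in none at 24 h, where 9.26% of all genes tested were lower and 7.16% higher. PMEPA1, a TGF-beta-induced protein that sequesters SMAD2 and SMAD3, read 10.11, 10.07 and 10.13 in siControl and 9.31, 9.04 and 9.08 in siRND3 at 24 h. The difference was -0.96 at 24 h (SE 0.09, limma adjusted p 0.00189) and -2.47 at 48 h (adjusted p 0.000418), and its other probe also passed at both times, with -0.32 and -1.21. SMURF2, a ubiquitin ligase for SMADs and receptors, fell by 0.82 (adjusted p 0.0177), although with normexp the difference was -0.24 and did not pass (adjusted p 0.0514), nor did it without siRND3 replicate 2 (adjusted p 0.0592). NEDD4L and PPM1A were the others that fell, named after their values were seen. Another NEDD4L probe differed by -0.10 and did not pass (limma adjusted p 0.572). PPM1A fell by 0.39 (adjusted p 0.0422) and was not called at 48 h. The count of 4 ran from 2 (without siControl replicate 1) to 4 with an array left out. It was 3 with no filter and with the replicate block, 5 with the deposited log2 values and 6 with normexp, 1 of them higher in each of the last 2.

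Known target genes were lower in 8 and higher in 2 of 35 cases at 24 h, with a median of -0.14, and lower in 14 and higher in 2 at 48 h, with a median of -0.37. The shares over all genes tested were 9.26% lower and 7.16% higher at 24 h, and 13.3% and 14.3% at 48 h. LIF and IL11, cytokines of the IL6 family, dropped by 1.24 (SE 0.10, limma adjusted p 0.000884) and 1.14 (SE 0.13, adjusted p 0.00353) at 24 h, and differed by -2.75 and -2.55 at 48 h. ID3, an inhibitor of helix-loop-helix factors that BMP signals induce, rose by 0.76 (SE 0.09, adjusted p 0.00417) and COL5A1, a fibrillar collagen chain, by 0.56 (SE 0.08, adjusted p 0.00777). ID3 read 11.06, 11.03 and 11.13 in siControl and 11.73, 11.99 and 11.80 in siRND3 at 24 h, and 10.47 and 12.95 at 48 h. ID1 and ID2 of the same list, named after their values were seen, did not share this rise at 24 h. By reference probe they differed by -0.43 and -0.15 (limma adjusted p 0.404 and 0.259). At 48 h their differences were 0.67 and 0.43, also without a call. The other COL5A1 probe differed by 0.30 and did not pass (adjusted p 0.152).

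**Figure D4:**
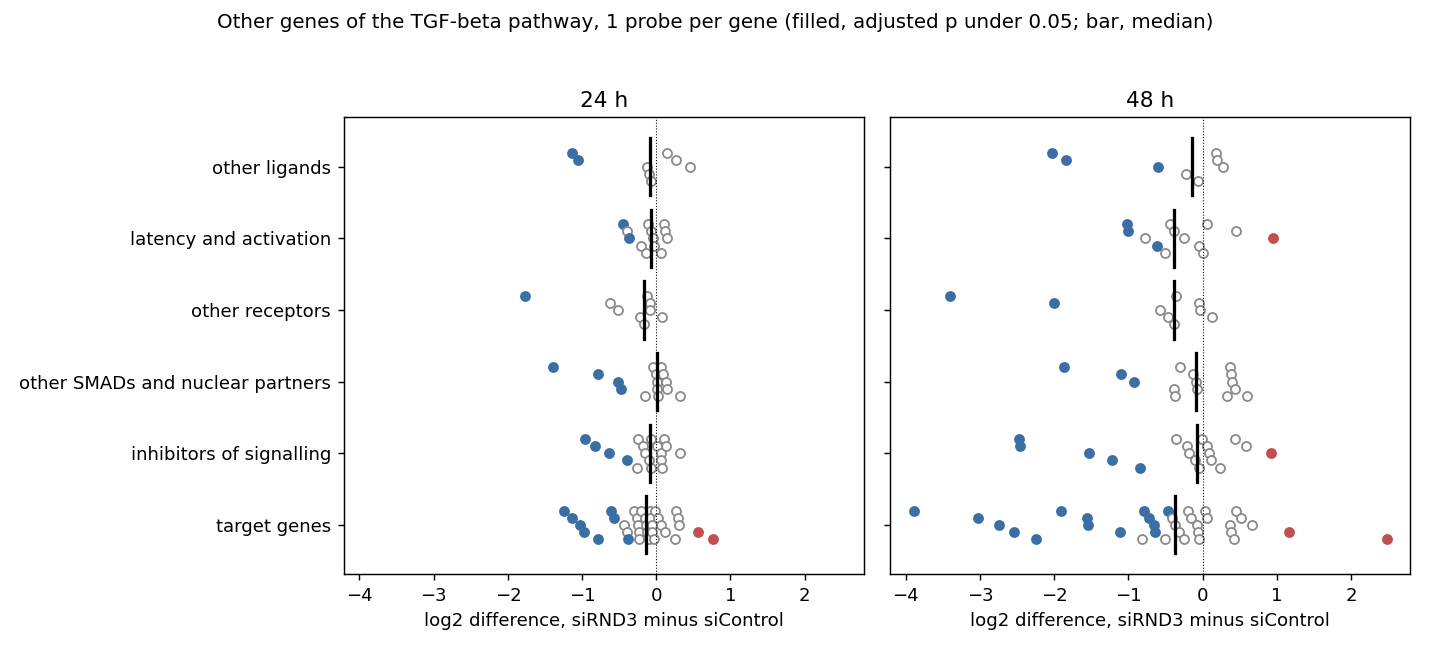
Log2 difference, siRND3 minus siControl (x axis), of the reference probe of each gene tested in the 6 pathway lists (y axis) at 24 h (left) and 48 h (right). Filled points passed an adjusted p of 0.05 (blue lower, red higher), open points did not, and black bars are medians, which run from -0.16 to 0.01 at 24 h. ACVR1C, among the filled points, entered the test through siControl alone.

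The 24 h differences of the members were recomputed under 16 other settings of scaling, background, filter, test and arrays. TGFB2 and SMAD3 passed in all 16, SMAD4 in 14 and INHBA in 10, and none of the other 6 members passed in any. These counts include the fit with all arrays, which could not differ at 24 h by construction and is no separate check.

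**Figure D5:**
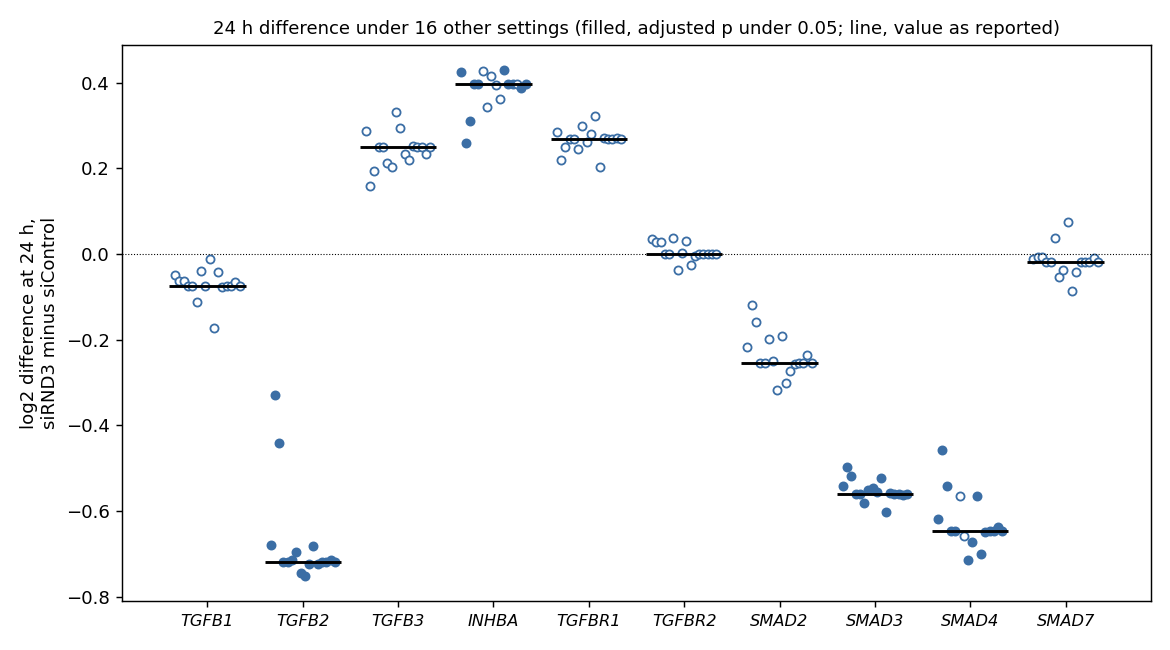
Log2 difference at 24 h, siRND3 minus siControl (y axis), of each member (x axis) under each of 16 other settings (points, filled where the adjusted p was under 0.05), with the reported value as a line. TGFB2 ranged from -0.75 to -0.33 and SMAD3 from -0.60 to -0.50, filled throughout. The point for the fit with all arrays equals the reported value by construction.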

How the data were processed

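Total RNA of U87 cells was measured on 8 Agilent 1-colour (Cy3) arrays, grouped by the deposited labels. The authors ran Agilent Feature Extraction 10.7.3.1. Per the file headers, the deposited files give linear spot intensity, and the processed signal is background-corrected within each array. The authors' deposited log2 values (methods: quantile normalisation) ranked spots exactly as the median signal did (Spearman correlation 1.0 on each array) and served as an alternative.

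The processed signal was put on a log2 scale and quantile-normalised across all 8 arrays (58717 non-control spots). Outlier spots (0.364% to 0.530% per array) were dropped and spots averaged into 42405 probes, of which 25422 were named by RefSeq accession (table of assembly GRCh38.p14). The arrays are annotated on hg19, so no probe coordinates are given. A probe counted as well above background with at least 50% of its spots so marked. Those 28759 that reached this on each of the 3 arrays of a group at 24 h were tested. No spot was saturated, and the number of arrays limits the precision.

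The 24 h groups were compared in limma 3.58.1 (R 4.3.3; lmFit, eBayes, no covariates), with p-values adjusted by Benjamini-Hochberg over the probes tested. Comparisons with 48 h used 4 groups and all 8 arrays, with all residual degrees of freedom from 24 h. Scripts were tested on simulated data. A gene of a list changed when any of its probes passed and none passed the other way; medians use its reference probe, the one with the highest mean at 24 h. Promoter sequences are from RefSeq, and all 10 members matched.

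The members and lists were chosen with earlier results of these data known. Genes named are the members, RND3, per pathway list the 2 largest falls and 2 largest rises called at 24 h by reference probe, and the 3 genes most like the member of widest range. Alternatives were 75th percentile scaling, normexp (offset 50) on the spot median and background, the deposited log2 values, quantile normalisation of the 6 arrays at 24 h alone, no filter, a filter on those 6 arrays, SAM as in the study (20 assignments), the replicate number as a block, array weights, all 8 arrays, and leaving out each 24 h array.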

Additional observations from a re-analysis of the deposited data

How the results depend on the processing

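At 24 h the count of members called stayed at 4 of 10 under each alternative but the replicate block (3) and the left-out arrays (2 to 4, with 2 without siControl replicate 1 or 2). At 48 h it was 5 to 7, with 7 under normexp, where SMAD4 passed at an adjusted p of 0.0467. The TGFBR1 difference at 48 h was smaller with normexp, -0.43. The interaction count of 0 became 3 with normexp, 3 with the deposited log2 values and 2 with the filter on all 6 arrays, and stayed at 0 otherwise. The time counts ran from 0 to 3 in siControl and 3 to 6 in siRND3 cells with an array left out, the 0 in siControl without any 1 of siControl replicates 1, 2 and 3 and the 3 in siRND3 without siControl replicate 2. The pathway list count of 23 ran from 14 (without siControl replicate 1) to 23 with an array left out and was 31 under normexp. Differences near 0 changed sign. With 75th percentile scaling, the SMAD4 interaction was -0.016 and the siControl time difference of SMAD2 0.028. With array weights, that of TGFBR2 at 24 h was -0.00044. With arrays left out, TGFBR2 at 24 h ran from -0.038 to 0.037, SMAD7 at 24 h from -0.086 to 0.075, the TGFB1 interaction from -0.062 to 0.099 and the SMAD4 interaction from -0.056 to 0.093. The cause of these shifts was not tested. Including the 48 h arrays left the 24 h fit as it was, by construction.

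Replicate numbers, which are also the slide columns, are not stated to pair the samples. Same-numbered arrays of the 2 treatments correlated in their deviations at 0.00, -0.01 and 0.13, against -0.13 to 0.11 for differently numbered arrays. With 3 arrays per group these values cannot decide whether samples were paired. With replicate number as a block, 3 members were called (INHBA lost, adjusted p 0.0921), 17 genes of the pathway lists and 1651 probes against 3350 in all.

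The arrays at 48 h had no replicate check, and 3 arrays per group limit the precision at 24 h.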
